A study of Homo sapiens with 4 samples.

Results

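Genes of the YAP/TAZ pathway were followed in PANC-1, an established human pancreatic ductal carcinoma cell line, with and without knockdown of SIRT1, an NAD-dependent protein deacetylase. The 10 genes, of 16878 in the expression tables, were ANKRD1, CTGF, CYR61, AMOTL2, MYOF, YAP1, WWTR1, TEAD1, LATS2 and MOB1A. They were chosen by name, with their measured values in siSIRT1 against Control already known. Their own contrast is therefore given as a description, with no test. The question was whether ANKRD1 stood alone among YAP/TAZ targets after SIRT1 knockdown.

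RNA-seq was done on 2 libraries from cells transfected with a control (Control) and 2 from cells given an siRNA to SIRT1 (siSIRT1), both for 48 h. All 4 libraries were made from total RNA of PANC-1 cells, with no other agent or genetic change named, and the control reagent is not given in the sources used here. The labels do not say whether the 2 libraries of a group came from separate cultures, so p-values measure the spread between these libraries. In bulk RNA, fewer cells of a kind and less RNA per cell cannot be told apart.

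YAP1 and TAZ are transcriptional coactivators that shuttle between cytoplasm and nucleus. The Hippo kinase cascade ends in LATS1 and LATS2, which phosphorylate both coactivators with the help of MOB1 scaffolds and keep them out of the nucleus. In the nucleus they act through the TEAD DNA-binding proteins, and ANKRD1, CTGF and CYR61 are their most widely used target genes. TAZ is encoded by WWTR1. The symbol TAZ in the expression tables belongs to an unrelated mitochondrial gene and was not used.

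The sequences of 2 target promoters are shown because the genes moved in opposite directions while sharing the motif that TEAD proteins bind. Each run is the 250 bases before the transcription start in RefSeq (GRCh38.p14), written 5′ to 3′ on the strand of the gene, which is the minus strand in both cases. Capitals mark GGAATG, the core of the TEAD motif, which was searched on both strands. The ANKRD1 window lies at chr10:90921088-90921337 and the CTGF window at chr6:131951373-131951622.
ANKRD1: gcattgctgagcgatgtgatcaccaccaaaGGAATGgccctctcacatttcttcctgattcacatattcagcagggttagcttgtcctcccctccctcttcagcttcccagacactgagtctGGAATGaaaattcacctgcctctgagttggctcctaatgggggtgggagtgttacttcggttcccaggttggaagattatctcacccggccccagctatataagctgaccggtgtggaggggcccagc
CTGF: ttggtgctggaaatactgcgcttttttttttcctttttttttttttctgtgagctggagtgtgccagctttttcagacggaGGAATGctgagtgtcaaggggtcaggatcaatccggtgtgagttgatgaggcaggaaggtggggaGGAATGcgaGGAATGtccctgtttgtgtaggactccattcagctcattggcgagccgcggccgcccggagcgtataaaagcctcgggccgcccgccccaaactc

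ANKRD1 held 2 matches, which began 220 and 128 bases before the start. CTGF held 3 matches, at 169, 104 and 95 bases. Among the 8 of the 10 genes with a promoter window in the table, YAP1 (chr11:102110197-102110446) and a second AMOTL2 start (chr3:134374448-134374697) held 1 match each. MYOF, WWTR1, LATS2 and MOB1A held none, and CYR61 and TEAD1 had no window. The motif was thus present in 4 of 8 genes, or 50%, against 14.3% of the 27305 genes with a window. Among other genes of the YAP/TAZ target signature described below, 5 of 11 (45.5%) held it, so the share was not particular to the 10 genes. With the shorter core GGAAT, which the longer motif contains, 5 of 8 genes (62.5%) had a match. The shares were 54.5% of those 11 signature genes and 36.8% of all genes. A match is a match of letters, not a measured binding site.

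SIRT1 itself was measured at 10.46 and 10.25 FPKM in Control, against 1.80 and 2.05 FPKM in siSIRT1. FPKM is a level per length: fragments divided by transcript length and by the mapped fragments of the library. The mean fell from 10.4 ± 0.148 to 1.92 ± 0.177 (SD, n = 2 each), so that 18.6% of the transcript remained (log2 fold change −1.96, SE 0.11, limma adjusted p = 1.33e-05). Summed FPKM ran from 397094 to 426279 per library, and the estimated depth from 8380000 to 8860000 reads. All 6 ductal epithelial markers reached 1 FPKM, with KRT8, a simple-epithelial keratin, highest. No fibroblast, endothelial or muscle marker did, and FAP and MYH7 were listed at 0. Of the leukocyte markers, LYZ lay between 15.3 and 19.5 FPKM and PTPRC between 0.97 and 1.29. Summed leukocyte markers were 16.5 and 18.4 FPKM in Control, against 20.5 and 16.6 FPKM in siSIRT1, and their part in the results was not tested.

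Changes below are log2 fold changes of FPKM + 1, which understate the change of weakly expressed genes. All 10 genes passed the filter of a mean of 1 FPKM, and a call means an adjusted p under 0.05 across the 12191 genes that did. As a description, 3 of the 10 genes were past that threshold and higher in siSIRT1, 4 were past it and lower, and 3 were not past it. The background was high, since 37.1% of all genes tested were called, 24% higher and 13.1% lower. That split, 2930 higher and 1591 lower, became 2022 and 2054 under median-of-ratios scaling, and the 4521 calls became 2808 without the first and 2710 without the second Control library. In 7 of the 10 genes the libraries of the groups did not overlap, as in 69% of all genes. Nothing is read from these counts, because the contrast chose the genes.

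**Figure D1:**
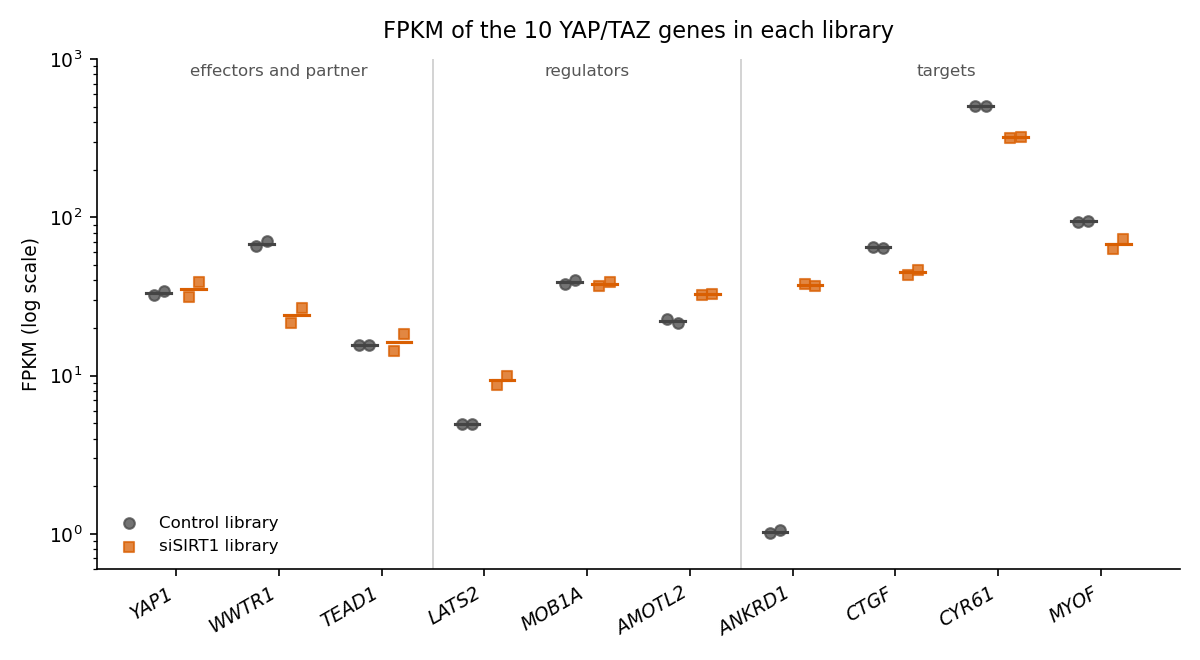
Expression of the 10 genes in each library, in FPKM on a log scale (circles, Control libraries; squares, siSIRT1 libraries; bars, group means). ANKRD1 stands at about 1 FPKM in both Control libraries and at 36.65 and 37.72 FPKM in siSIRT1, while CYR61, CTGF, MYOF and WWTR1 are lower in both siSIRT1 libraries than in both Control libraries.

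Among the effectors, the TAZ gene WWTR1 was lower in both siSIRT1 libraries, and the YAP1 values overlapped. WWTR1 (Entrez gene 25937, chromosome 3) was at 65.66 and 70.92 FPKM in Control, against 21.48 and 26.56 FPKM in siSIRT1. Both siSIRT1 libraries were far below both Control libraries. The mean went from 68.3 ± 3.72 to 24 ± 3.59 FPKM (SD, n = 2 each), which left 35.2% of the transcript, a log2 fold change of −1.48 (SE 0.10). WWTR1 was number 12142 of the 12191 genes when ordered from the largest rise to the largest fall.

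YAP1 (Entrez gene 10413, chromosome 11) was at 32.26 and 34.24 FPKM in Control, against 31.31 and 39.12 FPKM in siSIRT1. The siSIRT1 libraries lay on either side of the Control libraries, and the groups overlapped. The log2 fold change was 0.07 (SE 0.10) and became −0.01 under median-of-ratios scaling. The ratio of the paralogs turned over. YAP1 transcript was 0.491 and 0.483 of WWTR1 in Control and 1.46 and 1.47 of it in siSIRT1. The summed level of both went from 97.9 and 105 FPKM to 52.8 and 65.7 FPKM.

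**Figure D2:**
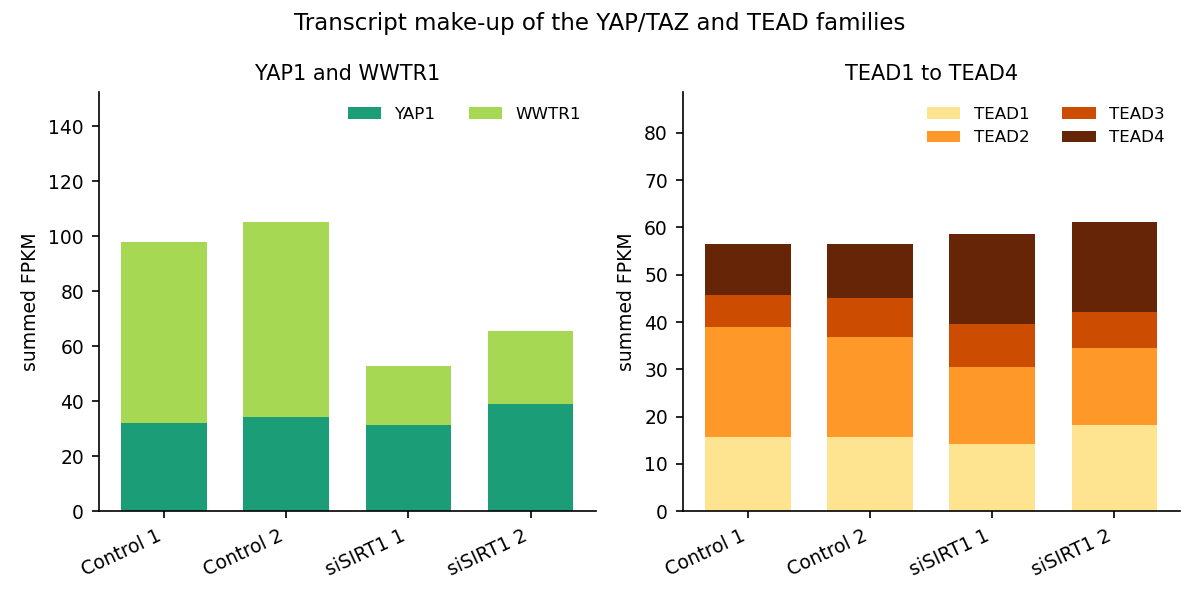
Stacked FPKM of YAP1 and WWTR1 (left) and of the 4 TEAD genes (right) in each of the 4 libraries. The WWTR1 share shrinks in both siSIRT1 libraries at a like level of YAP1, and the TEAD total stays between 56.6 and 61.1 FPKM while TEAD4 takes a larger and TEAD2 a smaller share.

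TEAD1 (Entrez gene 7003, chromosome 11), a DNA-binding partner of both coactivators, was at 15.68 and 15.69 FPKM in Control, against 14.31 and 18.26 FPKM in siSIRT1. The groups overlapped (log2 fold change 0.04, SE 0.11, and −0.04 under median-of-ratios scaling). TEAD4 and TEAD2 changed in opposite directions. TEAD4 was at 10.80 and 11.59 FPKM in Control, against 19.04 and 19.01 FPKM in siSIRT1, a rise of 0.72 on the log2 scale (SE 0.08, limma adjusted p = 0.000327). TEAD2 fell from 23.35 and 21.13 FPKM to 16.28 and 16.20 FPKM (log2 fold change −0.43, SE 0.08, limma adjusted p = 0.00355). TEAD3 was not called (0.14, adjusted p = 0.416).

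The summed TEAD transcript was 56.6 FPKM in each Control library and 58.6 and 61.1 FPKM in siSIRT1. TEAD4 made up 19.1% and 20.5% of that sum in Control and 32.5% and 31.1% in siSIRT1. TEAD2, the most abundant TEAD gene in Control at 41.3% and 37.4%, held 27.8% and 26.5% in siSIRT1. VGLL4, which competes with YAP and TAZ for TEAD, went from 18.13 and 19.38 FPKM to 15.42 and 16.46 FPKM without being called (log2 fold change −0.22, adjusted p = 0.0601). VGLL4 was called lower under median-of-ratios (−0.31, adjusted p = 0.0184), quantile (adjusted p = 0.0276) and equal-sum scaling (adjusted p = 0.0395). It was also called lower with a replicate block (adjusted p = 0.0325, range 0.0184 to 0.0954 over the settings with all libraries). VGLL3 was below the filter at 0.36 and 0.65 FPKM in Control, against 1.10 and 0.82 FPKM in siSIRT1.

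The kinase LATS2 and the angiomotin AMOTL2, both of which hold YAP and TAZ back, are themselves known targets of the coactivators, and both were higher in siSIRT1. LATS2 (Entrez gene 26524, chromosome 13) was at 4.94 and 4.92 FPKM in Control, against 8.72 and 9.99 FPKM in siSIRT1. Its mean was 1.9-fold higher, going from 4.93 ± 0.0141 to 9.36 ± 0.898 FPKM (SD, n = 2 each), a log2 fold change of 0.80 (SE 0.11). Its paralog LATS1 was at 7.84 and 6.74 FPKM in Control, against 5.65 and 8.49 FPKM in siSIRT1, and was not called (−0.06, adjusted p = 0.811). LATS2 was 0.63 and 0.73 of LATS1 in Control and 1.54 and 1.18 of it in siSIRT1, so that LATS2 became the more abundant of the pair.

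AMOTL2 (Entrez gene 51421, chromosome 3), a junction protein that binds YAP, was at 22.92 and 21.42 FPKM in Control, against 32.36 and 32.93 FPKM in siSIRT1. The mean was 1.47-fold higher (log2 fold change 0.54, SE 0.07). The angiomotins did not move as a family. AMOTL1 rose from 2.88 and 2.91 FPKM to 4.52 and 5.70 FPKM (log2 fold change 0.64, adjusted p = 0.00583), and AMOT fell from 7.36 and 7.37 FPKM to 4.18 and 5.96 FPKM (−0.48, adjusted p = 0.0318). Their summed transcript was 33.2 and 31.7 FPKM in Control, against 41.1 and 44.6 FPKM in siSIRT1, most of it AMOTL2.

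MOB1A (Entrez gene 55233, chromosome 2), the scaffold that activates LATS kinases, was at 37.84 and 40.07 FPKM in Control, against 36.66 and 39.10 FPKM in siSIRT1. The groups overlapped, and the log2 fold change was −0.04 (SE 0.07). MOB1B was not called (0.05, adjusted p = 0.743).

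ANKRD1 (Entrez gene 27063, chromosome 10), a nuclear and sarcomeric ankyrin repeat protein, was at 1.01 and 1.06 FPKM in Control, against 37.72 and 36.65 FPKM in siSIRT1. These values rest on about 15 and 17 reads in Control and about 556 and 558 reads in siSIRT1. The mean went from 1.04 ± 0.0354 to 37.2 ± 0.757 FPKM (SD, n = 2 each), a 35.9-fold difference. Its log2 fold change of 4.23 (SE 0.10) was the largest of all 12191 genes tested. That place depends on the scale, and with a pseudocount of 0.1 ANKRD1 came at rank 3, below SERF1A and ID2. In Control, ID2 was at 0.34 and 0.25 FPKM and SERF1A at 0.01 and 0.0 FPKM. Both passed the filter only through the siSIRT1 libraries, so their log2 fold changes depend strongly on the pseudocount. SERF1A was also uneven in siSIRT1, at 6.57 and 15.36 FPKM. On the FPKM + 1 scale the genes that followed were ID3 (4.06) and ID2 (3.87), inhibitors of differentiation, and SERF1A (3.47). SERF1A has a near-identical copy in the genome, and its value is uncertain.

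Unlike ANKRD1, LATS2 and AMOTL2, the targets CYR61, CTGF and MYOF were lower in siSIRT1. CYR61 (CCN1, Entrez gene 3491, chromosome 1), a secreted matricellular protein, was at 505.80 and 505.92 FPKM in Control, against 315.69 and 323.66 FPKM in siSIRT1. It kept 63.2% of its Control level (log2 fold change −0.66, SE 0.06). CTGF (CCN2, Entrez gene 1490, chromosome 6), its close relative, was at 64.95 and 64.35 FPKM in Control, against 43.34 and 46.75 FPKM in siSIRT1, or 69.7% of Control (−0.51, SE 0.06). MYOF (Entrez gene 26509, chromosome 10), a ferlin of membrane repair, was at 93.42 and 95.44 FPKM in Control, against 63.09 and 72.90 FPKM in siSIRT1, or 72% of Control (−0.47, SE 0.08). For each of the 3 genes, both siSIRT1 libraries were below both Control libraries.

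CYR61 and CTGF stayed in a like proportion, with CYR61 7.79 and 7.86 times as high as CTGF in Control and 7.28 and 6.92 times in siSIRT1. ANKRD1 left that proportion. It was 0.0156 and 0.0165 of CTGF in Control and 0.870 and 0.784 of it in siSIRT1. In summed FPKM the 3 classical targets together still went down, from 572 and 571 FPKM to 397 and 407 FPKM, because CYR61 made up most of the sum.

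In Control the levels ran CYR61, MYOF, WWTR1, CTGF, MOB1A, YAP1, AMOTL2, TEAD1, LATS2 and ANKRD1, from high to low, and no neighbours overlapped. In siSIRT1, CYR61, MYOF and CTGF led, and WWTR1, TEAD1 and LATS2 came last. MOB1A, ANKRD1, YAP1 and AMOTL2 lay between them, and the library ranges of neighbours among these 4 overlapped. ANKRD1 thus went from last to among the middle of the 10 genes, and WWTR1 from the third place to the eighth.

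Few relatives of the target genes by protein family were expressed well enough to be tested. WISP2, a CCN protein related to CTGF and CYR61, rose from 69.52 and 66.22 FPKM to 114.21 and 105.72 FPKM (log2 fold change 0.69, SE 0.06, limma adjusted p = 0.000126). NOV, WISP1 and WISP3 stayed below 0.2 FPKM and were not tested. ANKRD23, a muscle ankyrin repeat protein like ANKRD1, was not called (−0.26, adjusted p = 0.155). ANKRD2, of the same family, lay below the filter at 0.50 and 0.17 FPKM in Control, against 0.86 and 0.50 FPKM in siSIRT1.

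To see whether ANKRD1 stood alone, the widely used YAP/TAZ target signature of 22 genes was taken, of which 6 are among the 10 genes. Of the other 16, 15 were tested. In siSIRT1, 4 were higher, 4 were lower and 7 were not called, with a median log2 fold change of −0.06 against 0.07 over all genes. These shares, 26.7% higher and 26.7% lower, stand beside 24% and 13.1% over all genes, so the share of rises was near the background. The rises include CCDC80, which passed the filter only through the siSIRT1 libraries. Without it, 3 of 14 were higher and 4 lower. ANKRD1 was not the only signature gene that was higher. Without the second Control library, 3 were higher and 2 lower.

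The rises were IGFBP3, FOXF2, CCDC80 and ARHGEF17. IGFBP3, a secreted binder of insulin-like growth factors, came closest to ANKRD1. It went from 5.21 and 6.31 FPKM to 33.81 and 34.46 FPKM (log2 fold change 2.38, SE 0.10, limma adjusted p = 2.56e-06). FOXF2, a forkhead transcription factor, went from 2.27 and 2.83 FPKM to 6.33 and 6.53 FPKM (1.07, SE 0.13, adjusted p = 0.000386). CCDC80, a matrix protein, went from 0.35 and 0.62 FPKM to 1.93 and 1.99 FPKM (1.00, SE 0.15, adjusted p = 0.00126). CCDC80 passed the filter on low values only through the siSIRT1 libraries and was not tested without either of them, so it could not have been called lower. ARHGEF17, a guanine nucleotide exchange factor, rose less, from 12.71 and 12.88 FPKM to 16.21 and 16.71 FPKM (0.34, adjusted p = 0.0101). Its call was lost without either Control library (adjusted p = 0.0795 and 0.0673, range 0.00387 to 0.0357 over the settings with all libraries).

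The falls were NT5E, CRIM1, GADD45A and AXL. NT5E, the ectonucleotidase CD73, fell most, from 38.58 and 40.41 FPKM to 10.49 and 11.01 FPKM (log2 fold change −1.79, SE 0.07, limma adjusted p = 2.58e-06). CRIM1, a membrane protein that binds BMP ligands, went from 115.52 and 118.09 FPKM to 71.46 and 89.29 FPKM (−0.54, SE 0.10, adjusted p = 0.00271). GADD45A, a growth-arrest protein, had a log2 fold change of −0.38 (adjusted p = 0.00947), and AXL, a receptor tyrosine kinase, of −0.27 (adjusted p = 0.00997). AXL was not called without the first (adjusted p = 0.0966) or the second Control library (0.0994), nor without the variance trend (0.0557, range 0.000833 to 0.0557 over the settings that kept all libraries). GADD45A was not called without the second Control library (0.0649, range 0.00151 to 0.0406 over the settings with all libraries).

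The signature genes that were not called were ASAP1, F3, FJX1, DOCK5, PTPN14, NUAK2 and TGFB2, with log2 fold changes from −0.18 to 0.37. F3, the coagulation tissue factor, was the nearest to a call (0.37, adjusted p = 0.0616). Without the second siSIRT1 library, FJX1 was called higher (0.22, adjusted p = 0.0495) and PTPN14 lower (−0.30, adjusted p = 0.0182). RBMS3 was below the filter, at 0.20 and 0.27 FPKM in Control, against 0.84 and 0.68 FPKM in siSIRT1.

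**Figure D3:**
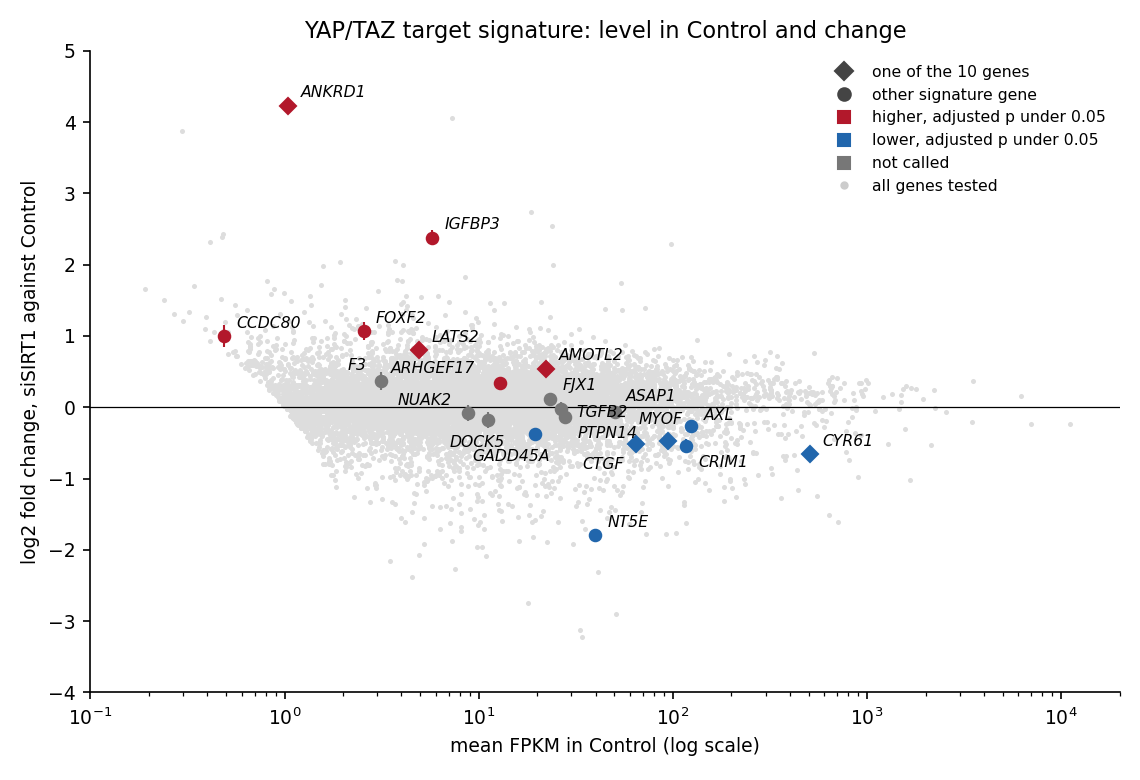
Mean FPKM in Control (x axis, log scale) against the log2 fold change in siSIRT1 (y axis, bars SE) for the 21 tested genes of the YAP/TAZ target signature, over the genes tested with a Control mean above 0.1 FPKM in grey. Diamonds are signature genes among the 10 genes followed here, circles the others. Among the circles, genes called higher (red) lie to the left of those called lower (blue), and red CCDC80 passed the filter only through the siSIRT1 libraries. The diamonds, with ANKRD1 at 1.04 FPKM and CYR61 at 506 FPKM, were chosen with this contrast known. Their colours are a description.

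The signature genes outside the 10 were also set against their level in Control. Of the 5 in the lower 50% of Control levels, 3 were called higher and 0 lower, or 2 of 4 higher without CCDC80. Of the 10 in the upper 50%, 1 was called higher and 4 lower. Over all genes, 1069 were higher and 507 lower among 6094 in the lower 50%, and 1861 and 1084 among 6097 in the upper 50%. ANKRD1 was at percentile 1.6 of Control levels and CYR61 at percentile 99.3.

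Across these 15 signature genes, Spearman's correlation between Control level and log2 fold change was −0.74, and it was −0.70 without CCDC80. Across all 12191 genes it was −0.02. The Control values enter both axes, so the level was also taken from 1 Control library and the change from the other. The correlation was then −0.70 and −0.79 for the 15 genes and −0.05 and 0.01 for all genes. These are descriptions across genes of 4 libraries, and genes are not independent replicates. In sum, transcripts of the 22 signature genes went from 1160 and 1172 FPKM to 896 and 961 FPKM. Without CYR61, they went from 654 and 666 FPKM to 580 and 638 FPKM.

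Within each group, most signature genes were higher in the second library than in the first. In the second siSIRT1 library 18 of the 21 tested signature genes were higher than in the first, against 51.2% of all genes. In the second Control library 17 of 21 were higher than in the first, against 52.8% of all genes. Some of these differences were slight, as for CYR61 at 505.80 and 505.92 FPKM in Control. Most other tested kinases and scaffolds of the Hippo pathway leaned the same way in both groups, so the lean was not particular to the signature. Its cause was not tested. Of the 10 genes, 9 were higher in the second siSIRT1 library, among them YAP1, TEAD1 and WWTR1, and ANKRD1 was the exception. The values of YAP1 and TEAD1 turned on that library. Without it their log2 fold changes were −0.08 and −0.12, and without the first siSIRT1 library they were 0.23 and 0.21.

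A broader list of 57 genes that respond to YAP in other cells shared 7 genes with the signature, or 31.8% of the signature and 12.3% of the broader list. Of its 48 tested genes outside the 10, 16 were higher, 9 lower and 23 not called, with a median log2 fold change of 0.11 against 0.07 over all genes. The shares were 33.3% higher and 18.8% lower, against 24% and 13.1% over all genes, and ADAMTS1, among those higher, passed the filter only through the siSIRT1 libraries. TGM2, a transglutaminase, rose from 57.47 and 51.23 FPKM to 144.19 and 138.71 FPKM (1.37, adjusted p = 6.51e-06), and THBS1, a matricellular thrombospondin, from 4.60 and 4.37 FPKM to 9.16 and 12.51 FPKM (1.10, adjusted p = 0.000595). CDKN2C (0.81), a cell cycle inhibitor, and DDAH1 (0.79), an enzyme that degrades methylated arginines, followed. The falls included ETV5, an ETS transcription factor, from 24.28 and 26.81 FPKM to 7.20 and 8.25 FPKM (−1.61, adjusted p = 1.44e-05), the leukocyte integrin chain ITGB2 (−0.95) and PHGDH (−0.70), an enzyme of serine synthesis. Under median-of-ratios scaling 11 were higher and 10 lower.

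Most other genes of the Hippo kinase cassette were not called. Of 21 tested kinases and scaffolds outside the 10 genes, 4 were higher, 1 was lower and 16 were not called, with a median of 0.12. The 5 calls were 23.8% of the genes, against 37.1% over all genes. STK38, a LATS-related kinase, rose from 15.04 and 15.49 FPKM to 23.09 and 24.35 FPKM (0.60, adjusted p = 0.000499). WWC3 (0.59), of the KIBRA family, MINK1 (0.44) and TAOK2 (0.27) were also higher, and TAOK3 was lower (−0.41, adjusted p = 0.0171). The core kinases STK3 and STK4 and the scaffolds SAV1 and NF2 were not called. Without the second Control library 3 were higher and 0 lower.

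Among upstream and binding regulators, 12 of 40 tested genes outside the 10 were higher, 3 lower and 25 not called, with a median of 0.09. The share called, 37.5%, was near the 37.1% of all genes. RASSF1, a scaffold that binds the kinases STK3 and STK4, rose most, from 7.12 and 6.93 FPKM to 22.14 and 20.57 FPKM (1.48, SE 0.09, limma adjusted p = 1.34e-05). WTIP, an Ajuba-family inhibitor of LATS, rose from 13.38 and 12.33 FPKM to 22.88 and 25.23 FPKM (0.85, adjusted p = 0.000176), followed by AMOTL1. The falls were STRN3 (−0.58), a subunit of the phosphatase complex that opposes STK3 and STK4, AMOT and YWHAZ (−0.27), a 14-3-3 protein. This count was fragile. Without the first Control library 5 were higher and 1 lower, and without the second 6 and 1. Under median-of-ratios scaling 8 were higher and 4 lower.

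The siRNA against SIRT1 listed by the study is shown with the stretch that pairs with bases 2 to 8 of its guide strand in capitals, since genes with this stretch in the 3′ untranslated region can be lowered by the siRNA itself.
siSIRT1: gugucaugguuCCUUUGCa
The whole sequence was found in 1 gene, SIRT1, among canonical human transcripts. CCUUUGC did not occur in the 3′ untranslated region of WWTR1, CTGF, CYR61 or MYOF, the 4 genes that were lower. It occurred once in AMOTL2, which was higher, and 2 times in TEAD1, whose groups overlapped. It was present in 15.6% of the 12020 tested genes with a 3′ untranslated region. MYOF had 1 occurrence elsewhere in its transcript. If the listed strand served as the guide, the stretch would be CAUGACA. YAP1 and TEAD1 held 1 each, no other of the 10 genes did, and 10.2% of tested genes had it.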

How the data were processed

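RNA-seq libraries of PANC-1 cells (2 Control, 2 siSIRT1) were grouped by their labels. The authors deposited FPKM values, rounded to 2 decimals, for 16878 genes in 1 table per library. The submitters' processing notes name HISAT, Bowtie2 and RSEM without role or version, and the genome build is not given in the sources used here. FPKM divides by the library total, so large changes in abundant genes can shift all others. Identifiers were matched to RefSeq symbols (16846 of 16878), which also restored 26 symbols turned into dates. How reads shared by copies or overlapping genes were assigned is not given.

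Genes whose mean over the 4 libraries reached 1 FPKM were tested with limma (version 3.58.1, R 4.3.3; lmFit, eBayes with trend) on log2(FPKM + 1), two-sided, with Benjamini-Hochberg adjustment over 12191 genes and a threshold of 0.05. The fit was tested on simulated data. Depth was estimated from the steps of low FPKM values in single-exon genes and is approximate, as are reads per gene. Of 342 candidate genes, 58 to 74 were used per library. Transcripts were GENCODE canonical transcripts, and promoters came from RefSeq, GRCh38.p14. Alternatives were a pseudocount of 0.1, no filter, quantile, median-of-ratios and equal-sum scaling, no variance trend, a replicate block and leaving out each library.

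The 10 genes and all lists were chosen with earlier results of these data known. Named genes are the 10 genes, SIRT1, all signature genes, TEAD and VGLL genes, paralogs, up to 4 largest rises and falls called in each other list, and the genes next to ANKRD1 by log2 fold change. The kinases STK3 and STK4 and the scaffolds SAV1 and NF2 were named as core of their list after their values were seen, as was ADAMTS1. A few genes that this rule selects are not reported here.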

Additional observations from a re-analysis of the deposited data

How the results depend on the processing

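As a description, 7 of the 10 genes were past the threshold under each scaling, filter, pseudocount, trend and block setting tried, and 7 to 8 with 1 library left out. The log2 fold change of ANKRD1 was 5.04 with a pseudocount of 0.1, 4.17 with quantile normalization, 4.16 with median-of-ratios scaling, 4.18 with equal FPKM sums, and 4.21 to 4.25 with 1 library left out. WWTR1 ranged from −1.62 to −1.33 with 1 library left out. Scaling changed the balance of calls over all genes from 64.8% higher (2930 higher, 1591 lower) to 49.6% (2022 and 2054) under median-of-ratios scaling, 53.3% under quantile normalization and 55.5% with equal sums. Genes called numbered 4521, and 2710 to 4582 with 1 library left out. The same range was 5 to 9 for the signature, 3 to 5 for the kinase cassette, which also gave 3 with no filter, and 6 to 16 for upstream regulators. In each of these ranges the lowest count came from leaving out a Control library. Over the genes tested, the SD of the log2 difference between the 2 libraries of a group was 0.164 in Control and 0.205 in siSIRT1. Every fit without 1 library rests on fewer samples and assumes that the lone library varies like the other group. The cause of the lower counts was not tested.

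The labels do not say whether libraries with the same replicate number were handled together, and a shared batch was not tested. Deviations of same-numbered libraries correlated at 0.123 over genes. With a replicate block 5393 genes were called, and F3 was called higher (adjusted p = 0.0302) and VGLL4 lower (0.0325). Over the settings with all libraries, adjusted p ranged from 0.0302 to 0.134 for F3 and from 0.0184 to 0.0954 for VGLL4. At about 8380000 to 8860000 reads and 2 libraries a group, the changes of YAP1, TEAD1 and MOB1A were not past the threshold with all libraries. The power to detect changes that small was not computed.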

Other observations

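Lists of neighbouring transcriptional programmes that share targets or cofactors with YAP and TAZ were counted in the same fit, with limma adjusted p-values. They were chosen with results of these data known. Among SRF/MRTF targets, the actin-dependent programme, 12 of 18 tested genes were higher, 1 was lower and 5 were not called, with a median log2 fold change of 0.40. That is 66.7% higher and 5.56% lower, against 24% and 13.1% of all genes tested. Calls in this list numbered 11 to 15 over the other settings with all libraries. MYL9, a myosin light chain, rose from 22.76 and 24.81 FPKM to 149.24 and 136.42 FPKM (2.54, adjusted p = 3.27e-07), and TPM1, a tropomyosin, from 54.76 and 53.53 FPKM to 190.32 and 176.16 FPKM (1.74, adjusted p = 1.02e-06). FHL2, a LIM-only cofactor, fell (−1.01, adjusted p = 2.64e-05). Among BMP feedback and ID genes 6 of 8 were higher (75%) and 1 was lower (12.5%), against 24% and 13.1% of all genes. The median was 1.92, and the lower gene was the BMP antagonist NOG (−0.79, adjusted p = 0.000415). Of these 8, ID2, ATOH8 and SMAD9 passed the filter on low values only through the siSIRT1 libraries, so they could not have been called lower. ID2 and ATOH8 are among the 6 that were higher and enter the median. SMAD9 was chosen for mention after its values were seen.

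All 13 tested TGF-beta/SMAD3 targets were called in the main fit, 9 higher (69.2%) and 4 lower (30.8%), against 37.1% of all genes called. Calls in this list numbered 11 to 13 over the other settings with all libraries. COL1A1, a fibrillar collagen chain, rose from 18.78 and 18.17 FPKM to 131.34 and 126.34 FPKM (2.74, adjusted p = 1.08e-07), while TGFBI, a matrix protein, fell from 382.88 and 376.84 FPKM to 226.29 and 229.15 FPKM (−0.74, adjusted p = 5.24e-05). Of 6 tested AP-1 factors, which bind near TEAD at many enhancers, 16.7% were higher and 50% lower, against 24% and 13.1% of all genes. JUNB rose (0.75, adjusted p = 0.000414). JUN (−0.66, adjusted p = 0.000681), FOSL1 (−0.65, adjusted p = 0.000159) and JUND (−0.33, adjusted p = 0.00526) fell, and 2 were not called.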
